A study of Mus musculus with 20 samples.

Results

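The genes described are the constitutive subunits of the proteasome with the chaperones that assemble its regulatory base, taken as every gene whose symbol is Psma, Psmb, Psmc or Psmd followed by a number, leaving out the 3 immunoproteasome subunits Psmb8, Psmb9 and Psmb10. This gave 36 of the 21315 gene symbols listed. Bulk RNA-seq had been made of CD45+ CD11b+ microglia sorted from brains of 9-month-old mice, in 20 libraries of 6 conditions. APP-KI mice carry a humanized amyloid-β sequence with the Swedish, Iberian and Arctic mutations in the endogenous App gene and form plaques, and C3aRKO mice lack C3ar1, the receptor for complement C3a. Microglia expressing a Td-tomato reporter of C3aR were collected from WT (n = 3) and APP-KI mice (n = 3), and are called WT C3aR+ and APP-KI C3aR+ here. Microglia sorted without the reporter came from WT (n = 3), APP-KI (n = 3), C3aRKO (n = 3) and APP-KI;C3aRKO mice (n = 5). All are labelled C57BL/6, and the sex of each mouse is not labelled. The reporter mice of both genotypes were of a Td-tomato C3ar1 fl/fl line, and C3aRKO is a deletion in every cell of the mouse.

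The proteasome degrades proteins tagged with ubiquitin and cuts them into short peptides. Its core particle is a barrel of stacked rings, with outer rings of alpha subunits (Psma genes) that gate the entrance and inner rings of beta subunits (Psmb genes). Of the beta subunits, Psmb5, Psmb6 and Psmb7 carry the chymotrypsin-like, caspase-like and trypsin-like active sites, and interferon-inducible Psmb8, Psmb9 and Psmb10 can take their places. The regulatory particle caps the barrel, with a base that holds a ring of ATPases (Psmc genes) for unfolding and a lid that holds Psmd14, the enzyme that removes ubiquitin. When proteasome activity is too low, the transcription factor NRF1 (Nfe2l1) is known to raise the transcription of most of these genes through antioxidant response elements.

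Levels are given as scaled reads, a gene's reads relative to the upper quartile of its library, times 1 constant for all libraries, and are not divided by gene length. Library totals ran from 13939559 to 30388941 reads in the C3aR+ libraries and from 42239056 to 76608464 in the others, and 34 of the 36 genes had between 60 and 10451 reads in every library. A gene was called changed at a limma adjusted p under 0.05, adjusted over all genes tested.

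C3ar1 ran from 39.9 to 80.4 scaled reads in the 8 C3aRKO and APP-KI;C3aRKO libraries and from 165 to 388 in the 6 WT and APP-KI libraries sorted without the reporter. It was at 201 to 383 in APP-KI C3aR+ libraries but at 37.6 to 81.2 in WT C3aR+ libraries, the range of the knockouts, which goes against the name of the latter. Directions drawn from the C3aR+ comparison below are those of the libraries so labelled. The 10 microglial markers summed to 9957 or more in every library. The 8 neuronal markers stayed at or under 7.5 in 19 libraries and reached 35.3 in APP-KI replicate 5, which also had the highest sum of T and NK cell markers, 57.8. Libraries stood apart by genes at 0. APP-KI replicate 4, C3aRKO replicates 1 and 2 and APP-KI;C3aRKO replicate 1 had 8076 to 8939 such genes, APP-KI replicate 5 had 107, and the other 15 had 3876 to 6438. In the first 4 the proteasome genes scattered widely, with an SD of 0.52 to 0.70 (log2) around the median library over 35 genes, against 0.10 to 0.18 in the other 10 libraries sorted without the reporter and 0.25 to 0.41 in the C3aR+ libraries (plot of scatter by library). Results that rest on these 4 libraries are given with and without them.

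**Figure D1:**
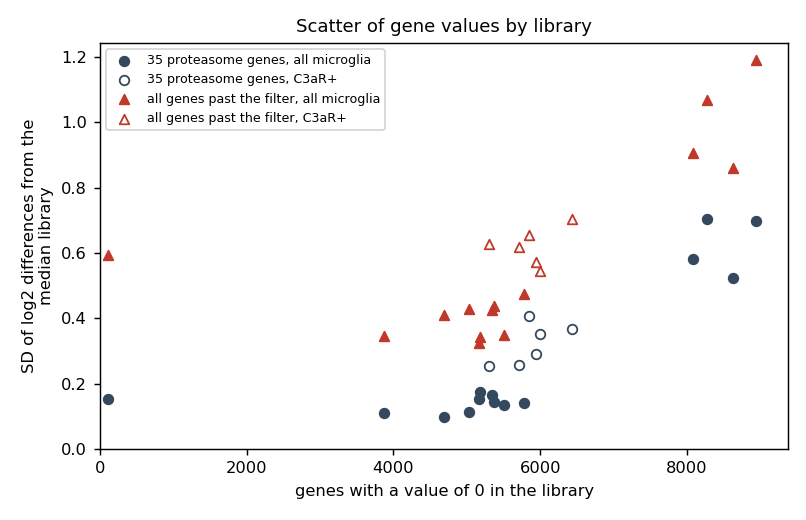
SD of the log2 differences between a library and the median of all libraries (vertical axis) against the number of genes with a value of 0 in that library (horizontal axis), for 35 proteasome genes (circles) and all 12374 genes past a mean of 1 scaled read (triangles). Filled symbols are libraries of all sorted microglia and open ones C3aR+ libraries. The 4 libraries at the right, over 8000 genes at 0, have the highest values of both.

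Of the catalytic subunits, Psmb6 and Psmb5 hold the motif TGACNNNGC, the core of an antioxidant response element, close to their start sites, and these stretches are shown because this pair varied most of the 34 broadly expressed members over the 10 libraries sorted without the reporter that have fewer than 8000 genes at 0. Over all 14 such libraries Psmb5 (44.8%) still had the highest coefficient of variation, and Psmb6 (25.7%) lay below it and 5 other members. The sequences are from RefSeq on GRCm38.p6. The first is chr11:70525257-70525356 on the plus strand and ends at the base before the RefSeq start site, and the second is chr14:54618023-54618095 on the minus strand and ends 27 bases before it, at the last base before Psmb5 as annotated in GENCODE. Capitals mark the motif.
Psmb6: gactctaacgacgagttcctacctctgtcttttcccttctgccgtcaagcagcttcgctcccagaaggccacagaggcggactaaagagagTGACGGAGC
Psmb5: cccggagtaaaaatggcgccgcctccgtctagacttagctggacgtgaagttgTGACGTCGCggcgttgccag
Promoter windows from 250 bases before to 50 after the start were available for 29 of the 36 genes, and Psmb1, Psmb2, Psmb7, Psma8, Psmc3, Psmd3 and Psmd7 had none. Read on both strands, TGACNNNGC was found in 5 of these 29 genes (17.2%), Psmb5, Psmb6, Psmc6, Psmd9 and Psmd12, and in 14% of all 27025 genes with a window. Over the 10 libraries named above, the coefficient of variation was 6.57% for Psmc6, 7.26% for Psmd12 and 10.75% for Psmd9, with a median of 9.08% over the 34 members. A link between the motif and variation was not tested. CCAAT, the motif bound by NF-Y, was found in 12 of 29 (41.4%) and in 41.1% of all genes. The shares of proteasome genes with either motif were thus close to those of all promoters of this length. A match is a description of the letters and not of binding.

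Transcript levels of the subunits differed although the particle holds them in equal number. Per kilobase of annotated exon, the 34 broadly expressed members ran over a 9.11-fold range in WT microglia sorted without the reporter, from 6.51 ± 0.35 scaled reads per kb (SD, n = 3) for the alpha subunit Psma3 to 59.3 ± 1.3 for Psmd4, a ubiquitin receptor of the base. Psmb6 (57.7 ± 3.8) and the ATPase Psmc3 (57.1 ± 2.9) overlapped Psmd4 in their libraries. The other catalytic subunits were lower, Psmb7 at 24.2 ± 2.6 and Psmb5 at 10.5 ± 1.4. The 3 base assembly chaperones Psmd5, Psmd9 and Psmd10, which leave the finished particle, were at 6.60 to 10.98. Of 33 neighbouring pairs in this order, 25 had overlapping libraries and cannot be ranked. Exon lengths ran over all annotated transcripts of a gene. They were 3427 bases for Psmb1, at 18.6 ± 0.83, and 798 bases for Psmb6. Psma3 had 2846 bases and the alpha subunit Psma5 1239. Before division by length, Psma3 had a mean of 18.5 scaled reads in these WT libraries, above Psma5 (9.92) and Psmb5 (9.43). The last place of Psma3, and with it the 9.11-fold range, thus depends on annotated length. Psmd10, with 1469 bases, was nearly as low per kb, at 6.83 ± 0.55.

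**Figure D2:**
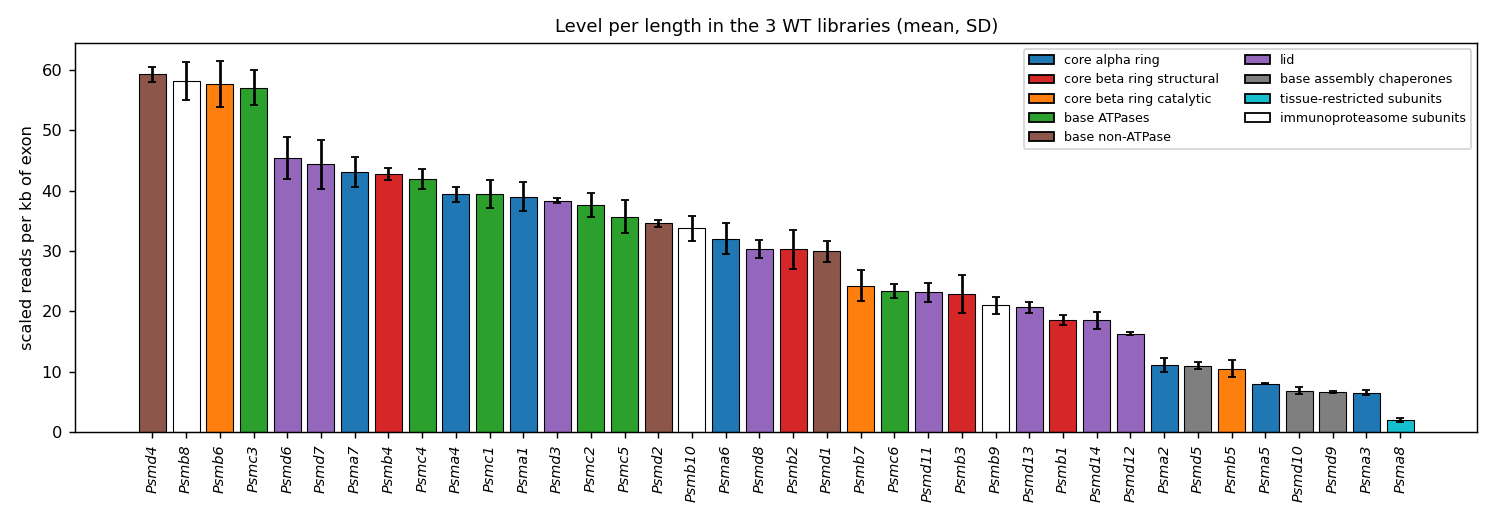
Mean scaled reads per kb of exon in the 3 WT libraries sorted without the reporter (bars, with SD), in falling order for 35 proteasome genes, Psmb11 left out, and the 3 immunoproteasome subunits (white). Psmd4, Psmb8, Psmb6 and Psmc3 lead, and Psma8 is last at 1.99.

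The tissue-restricted members were the lowest per kb in WT microglia. Psmb11, the beta subunit of thymic cortical epithelium, had at most 7 reads in 18 libraries, 20 in APP-KI C3aR+ replicate 3 and 119 in APP-KI replicate 5 (2.49 scaled reads), and failed the filter on low values in every fit. In the 14 libraries without a read, 3 reads, the limit that a count of 0 allows, would be 0.0442 to 0.155 scaled reads, and this covers counting error only. Psma8, the alpha subunit of the testis, passed the filter and ran from 0 to 17.2 scaled reads, the highest in APP-KI;C3aRKO replicate 1, followed by 11.9 in APP-KI C3aR+ replicate 1, with all the others at 4.91 or less.

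As a group, the genes took a nearly constant part of the library. All 36 together made up 0.174% ± 0.002 of reads in WT (SD, n = 3), 0.164% ± 0.012 in APP-KI, 0.164% ± 0.006 in C3aRKO, 0.171% ± 0.007 in APP-KI;C3aRKO (n = 5), 0.169% ± 0.006 in WT C3aR+ and 0.168% ± 0.007 in APP-KI C3aR+ libraries. Single genes varied little over part of the libraries sorted without the reporter. Over the 10 libraries of all sorted microglia with fewer than 8000 genes at 0, which span 4 genotypes, the median coefficient of variation of the 34 members was 9.08%. It was lowest for the lid subunit Psmd3 (4.27%) and highest for Psmb6 (23.8%), Psmb5 (22.1%) and Psmb1 (17.8%), all of the beta ring. With the other 4 libraries the median was 20.4%. For 32 of 34 genes the lowest or the highest of the 14 values came from 1 of those 4. No coefficient of variation was taken over all genes. Without those 4 and APP-KI replicate 5, the median SD left by the fit was 0.10 (log2) for members and 0.11 for all genes. In the fit of the C3aR+ libraries these were 0.24 and 0.31.

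The first question was how C3aR-expressing microglia of plaque-bearing mice differ from those of WT mice. Of the core particle genes 3 passed the test, all higher in APP-KI C3aR+ microglia, and of the base and lid genes 0. Psmb1, a structural beta subunit, Psmb6, the caspase-like subunit, and Psma7, an alpha subunit, rose by 0.72 ± 0.13, 0.71 ± 0.20 and 0.52 ± 0.15 (log2 fold change ± SE, n = 3 and 3). These were 3 members higher and 0 lower of 35 tested, when 13% of all 12312 genes were called higher and 9.71% lower, so the share of members called higher lay under that of all genes.

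Psmb1 (chromosome 17, 15475021 to 15499751, minus strand, mm10) had 47.7, 54.0 and 50.8 scaled reads in the WT C3aR+ libraries and 83.5, 87.8 and 81.1 in the APP-KI C3aR+ libraries. The groups were far apart, with a limma adjusted p of 0.00405. Psmb6 (chromosome 11, 70525367 to 70527858, plus strand) had 42.1, 42.4 and 39.7 against 70.8, 51.6 and 87.8. All the APP-KI values were above the WT values but spread widely (adjusted p = 0.0274 by limma). Psma7 (chromosome 2, 180036374 to 180042433, minus strand) had 45.9, 40.5 and 45.5 against 56.1, 64.4 and 70.8, again without overlap (adjusted p = 0.0349 by limma). The plot by library shows these values. The share of all genes without overlap was not taken within this comparison or those below.

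**Figure D3:**
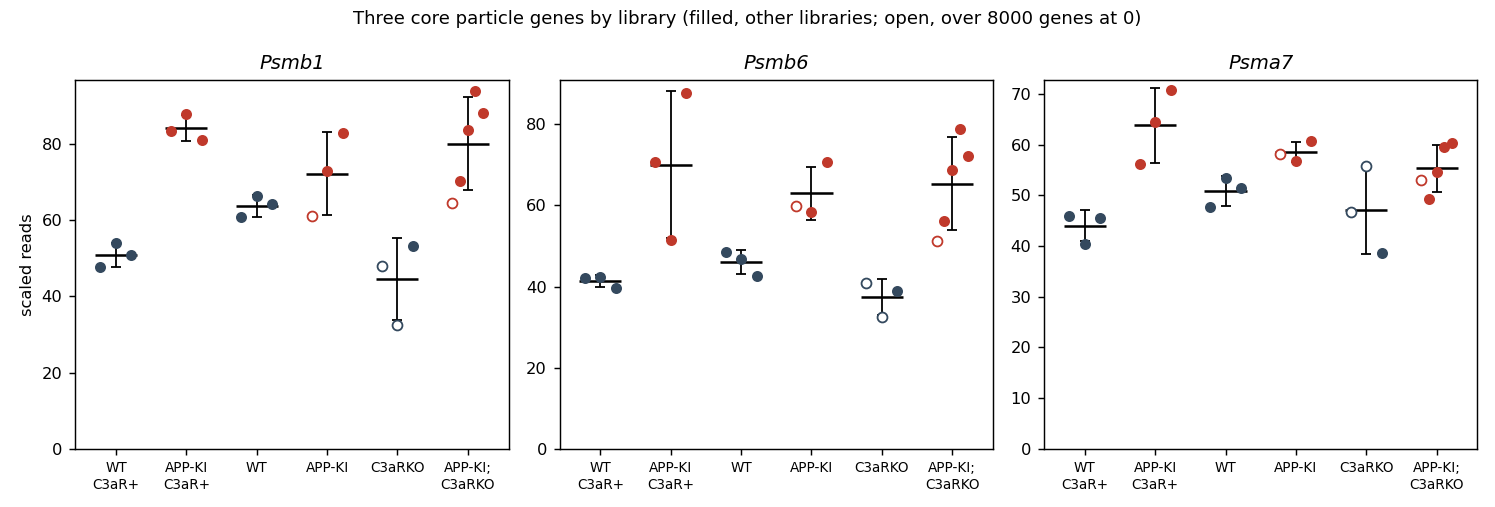
Scaled reads of Psmb1, Psmb6 and Psma7 (panels) in every library of the 6 conditions, with the mean (line) and SD (whiskers). Red points are APP-KI genotypes, dark points are WT and C3aRKO, and open points are the 4 libraries with over 8000 genes at 0. The 11 APP-KI libraries are at 51.1 or more for Psmb6, and the other 9 at 48.6 or less.

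Of the other beta subunits, Psmb4 was at 0.57 ± 0.18 (adjusted p = 0.0509) and Psmb2 at 0.86 ± 0.31 (adjusted p = 0.0735), both short of the threshold of limma. Psmb5 had 9.74, 8.79 and 2.42 scaled reads in WT C3aR+ and 11.2, 5.94 and 16.98 in APP-KI C3aR+ libraries. The difference was as large as for Psmb6, 0.69, but with an interval from -0.50 to 1.89. Psmb7 was at 0.06, with an interval from -0.47 to 0.59. In all, 6 of the 7 beta ring genes had a positive log2 fold change, and 2 of the 7 alpha ring genes. The median was 0.18 over the 14 core genes and -0.09 over the 20 base and lid genes with their chaperones, none of which was called. The largest fall was that of Psmd5, an assembly chaperone, at -0.35 ± 0.18 (adjusted p = 0.191), and the largest positive value was that of the scarce Psma8, 0.88 ± 0.62 (adjusted p = 0.328), which was 0.31 without APP-KI C3aR+ replicate 1.

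These values depend on the scale. The median of all genes was -0.17 here and the member median -0.02, with 1602 genes called higher and 1196 lower. Under median ratio scaling the medians were -0.03 and 0.12, with 1846 higher and 605 lower, the base and lid median became 0.05, and 5 members were called, Psmb2 and Psmb4 besides the 3 above. At the threshold of 0.05, Psmb1 was called under 16 of 16 alternatives, 10 settings and 6 leaving out a library, and Psmb6 and Psma7 under 9 each, all with a positive sign. At a threshold of 0.0005 none of the 3 was called. Psmb1 was the 1 member called without APP-KI C3aR+ replicate 3, WT C3aR+ replicate 1 or WT C3aR+ replicate 2. In that order, 1385 of 12354, 1253 of 12196 and 1217 of 12271 genes were called higher, and 1024, 647 and 616 lower. The share of members called thus lay under that of all genes. The fold change of Psmb6 was then 0.54 (adjusted p = 0.0684), 0.73 (adjusted p = 0.0668) and 0.73 (adjusted p = 0.0685) by limma.

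Markers of other cells moved with the genotype here. The sum of 6 endothelial markers was 45.6 to 89.1 in WT C3aR+ and 171 to 326 in APP-KI C3aR+ libraries, none of the 6 at 0 in 5 or more libraries. Border macrophage markers summed to 472 to 694 and 178 to 395, and microglial markers to 24602 to 27015 and 17914 to 21136. Astrocyte markers summed to 302 to 400 and 218 to 276, and oligodendrocyte markers to 139 to 187 and 193 to 213. Sums for neurons, for monocytes and neutrophils and for T and NK cells overlapped. The part of these markers in the results was not tested. More RNA per cell and more cells of a type cannot be told apart in bulk samples.

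Among microglia sorted without the reporter, APP-KI and WT were compared in the same way. No member passed the test (0 of 35, where 4.14% of 12407 genes were called, 1 member at an unadjusted p under 0.05, and 0 members by edgeR or DESeq2 on the recovered reads). With library weights 3 of 35 members were called higher and 1 lower, when 1653 of 12407 genes were called higher and 1969 lower. The share of members called thus lay under that of all genes. These members were Psmb6 at 0.59 (adjusted p = 0.00021 by limma), Psmb1 at 0.33 (adjusted p = 0.0035), Psmb4 and, lower, Psmc1. Psmb6 had 48.6, 46.9 and 42.7 scaled reads in WT and 59.8, 58.5 and 70.6 in APP-KI libraries, no overlap, and a difference of 0.51 ± 0.18 (adjusted p = 0.168 by limma). Psmb1 had 60.7, 66.4 and 64.1 against 61.1, 72.8 and 82.8, which overlap, at 0.27 ± 0.17. Psma7 was at 0.21 ± 0.17. Psmb5 was at 0.49, with an interval from -0.54 to 1.51, and Psmb7 at -0.29, with an interval from -0.95 to 0.37. The lowest value was that of Psmb2, -0.53 ± 0.46, which had 23.1, 28.8 and 26.04 in WT and 4.62, 25.1 and 27.4 in APP-KI, the 4.62 in APP-KI replicate 4. The median was 0.04 over the core genes and -0.18 over the base and lid, without the median of all genes beside them.

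Without the 4 libraries with over 8000 genes at 0, an alternative chosen after seeing the data, the same comparison gave 4 members higher and 2 lower of 35, when 13.2% of 12563 genes were called higher and 14.7% lower. The higher ones were all core genes, Psmb6 (0.50 ± 0.12), Psmb1 (0.32 ± 0.08), Psma6 (0.24 ± 0.08) and Psma7 (0.23 ± 0.07). The lower ones were the base ATPases Psmc1 (-0.28 ± 0.09) and Psmc5 (-0.26 ± 0.08). All 6 ATPases had a negative value, but the median of all genes is not set beside them, and the dependence of this sign on the scale was not tested. Without APP-KI replicate 5 as well, the library with 107 genes at 0, APP-KI was left with replicate 6, assumed to vary like the other groups. Psmb1 was then at 0.30 and Psma7 at 0.19, and no count of calls is given for a group of 1 library. Marker sums of several cell types separated WT from APP-KI libraries. They were 48.1 to 58.8 against 200 to 257 for endothelial cells, 439 to 1184 against 257 to 277 for border macrophages, 0.78 to 1.17 against 2.94 to 57.8 for T and NK cells and 29172 to 31272 against 11589 to 23679 for microglia, and their part was not tested.

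Libraries of this sort carry numbers of 2 series. Each holds 1 arm of 1 library, WT replicate 4 in the first and APP-KI replicate 6 in the second, which is assumed to vary like the other groups. Within the libraries whose number starts with 24, Psmb6 was at 0.28 ± 0.54 and Psmb1 at 0.13 ± 0.52. Within those starting with 26, Psmb6 was at 0.65 ± 0.11 and Psmb1 at 0.34 ± 0.09. All 4 libraries with over 8000 genes at 0 are in series 24.

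The plaque response of microglia that lack C3aR was taken from APP-KI;C3aRKO against C3aRKO. Psmb1 and Psmb6 rose, by 0.76 ± 0.15 (adjusted p = 0.00657 by limma) and 0.72 ± 0.16 (adjusted p = 0.0120), and no member fell. These were 2 of 35, when 3.96% of 12407 genes were called higher and 2.97% lower. Psmb1 had 47.9, 32.5 and 53.3 scaled reads in C3aRKO, and 64.6, 70.3, 83.7, 93.8 and 88.0 in APP-KI;C3aRKO libraries. Psmb6 had 41.0, 32.4 and 38.9 against 51.1, 56.0, 68.8, 78.8 and 72.2. Neither gene had overlapping groups. The share of all genes without overlap was taken only over all libraries together, and not within single comparisons. Psma2, an alpha subunit with 17.6, 13.8 and 31.3 against 31.1 to 40.5, was at 0.71 ± 0.21 (adjusted p = 0.0551), low in the pair of C3aRKO libraries with over 8000 genes at 0.

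Psmb5 was at 0.62, with an interval from -0.30 to 1.53, and Psmb7 at -0.34, with an interval from -0.92 to 0.25. The extremes were Psma8 (1.33 ± 0.58, adjusted p = 0.215) and Psma3 (-0.44 ± 0.22, adjusted p = 0.271), and the value of Psma8 was -0.15 without the 4 libraries. The median was 0.30 over the core genes and 0.01 over the base and lid, again without the median of all genes beside them. At the threshold of 0.05, Psmb1 was called under 28 of 31 alternatives and Psmb6 under 27, and both were positive in these 31. Among the 31 were fits that left out only a WT or APP-KI library, which is in neither group compared. Leaving out APP-KI replicate 5 was counted more than once. At 0.0005 neither Psmb1 nor Psmb6 was called. Psmb6 lost its call without C3aRKO replicate 3 (adjusted p = 0.0634). Without APP-KI;C3aRKO replicate 1 alone, 4 members were called higher and 0 lower, when 759 of 12433 genes were called higher and 638 lower. Psmb5 was among these 4 at 1.03 ± 0.31 (adjusted p = 0.0478 by limma).

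Without the 4 libraries, 8 members were higher and 0 lower of 35, against 13.2% and 18.2% of 12563 genes. Of the 8, 6 were core genes, Psmb6 (0.84 ± 0.15), Psmb1 (0.69 ± 0.10), Psma7 (0.56 ± 0.09), Psmb4 (0.47 ± 0.12), Psma5 (0.45 ± 0.12) and Psma6 (0.31 ± 0.10). The others were Psmd10 (0.35 ± 0.11), also known as gankyrin, and Psmd8 of the lid (0.22 ± 0.07). This count set a single C3aRKO library, with the spread of the other groups, against 4 APP-KI;C3aRKO libraries. Within series 24, Psmb1 was at 0.76 ± 0.42 and Psmb6 at 0.54 ± 0.44. No member was called there, when 72 of 12724 genes were called higher and 7 lower. Within series 26, Psmb1 was at 0.72 ± 0.09 and Psmb6 at 0.89 ± 0.10. C3aRKO replicate 3 was again the 1 library of its group there. Endothelial markers summed to 41.2 to 62.9 in C3aRKO and 79.3 to 262 in APP-KI;C3aRKO libraries. Border macrophage markers summed to 356 to 591 and 190 to 348, and astrocyte markers to 350 to 389 and 215.5 to 340. The part of these markers was not tested.

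**Figure D4:**
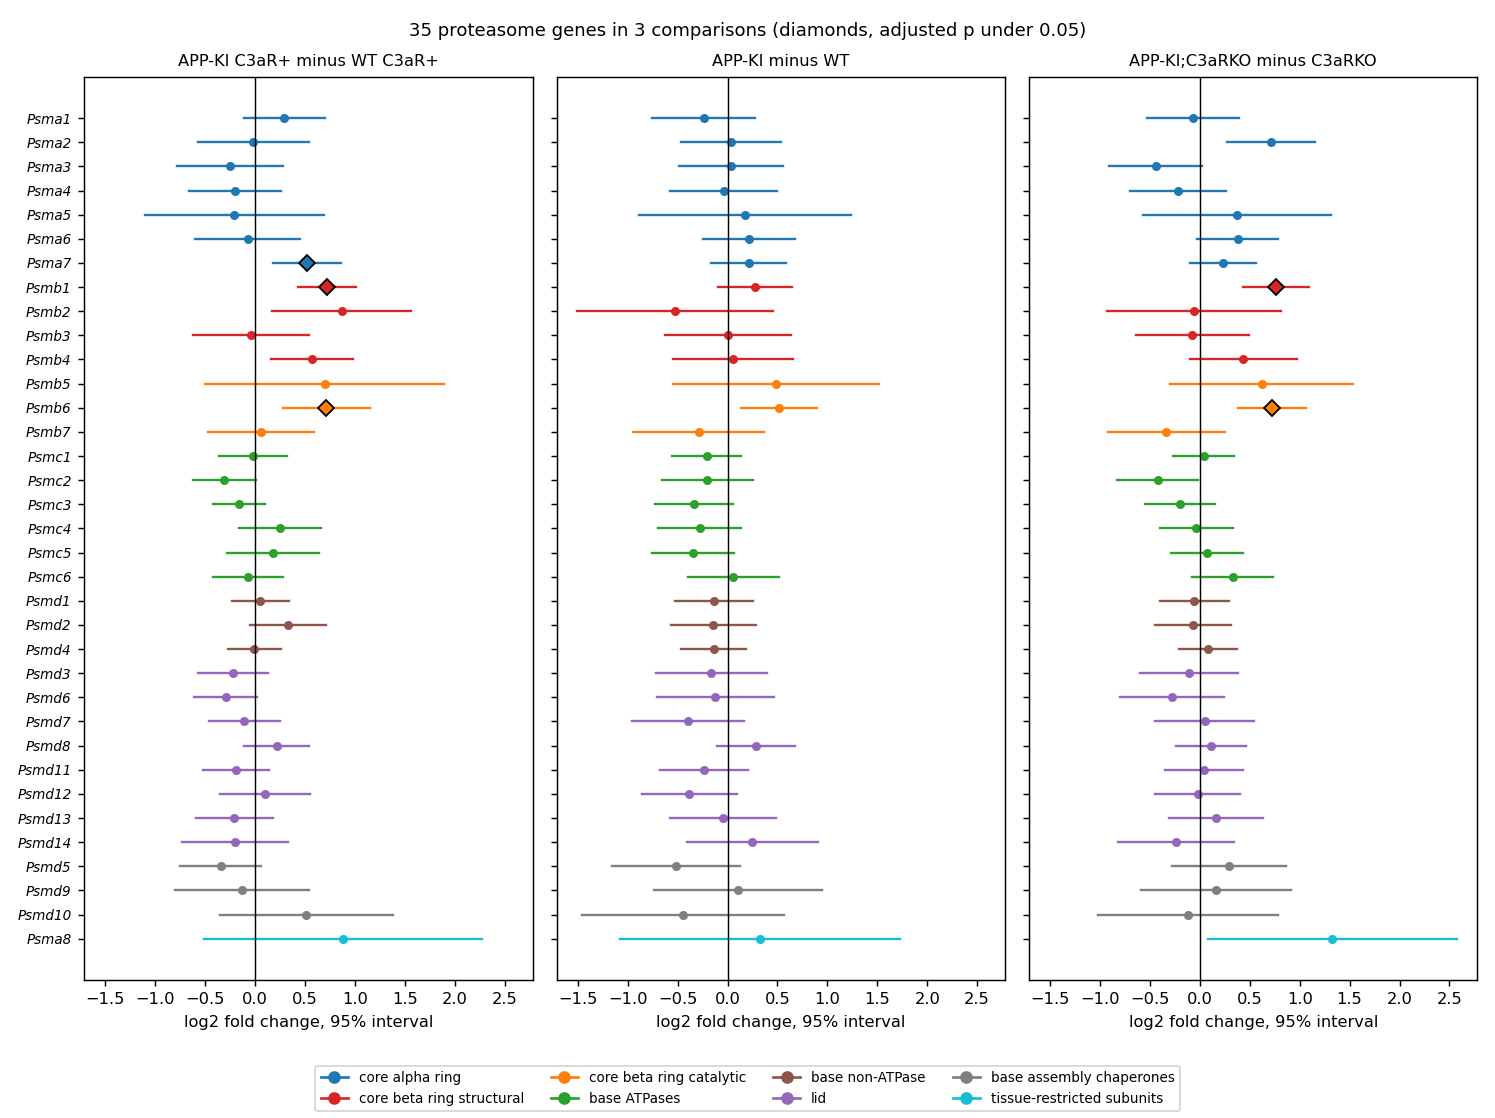
Log2 fold change with 95% interval (horizontal axis) of 35 proteasome genes (vertical axis, coloured by place in the particle) in the 3 comparisons of APP-KI with mice without the knock-in. Diamonds passed the test. Psmb1 and Psmb6 have intervals above 0 in the left and right panels, and base and lid genes lie around 0.

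Psmb6 was the only member that separated all APP-KI libraries from all others. It was at 51.1 to 87.8 scaled reads in the 11 libraries with the knock-in and at 32.4 to 48.6 in the 9 without. Of all 12374 genes past the filter, 2.68% were likewise higher in every APP-KI library, and 1 of 35 members is close to that share. For Psmb1, 9 of the 11 APP-KI libraries were above every other library, for Psma7 8, for the lid gene Psmd8 7 and for Psmb5 6. The share of all genes with such partial separation was not taken. The 3 comparisons of APP-KI share no library, and the first was fitted apart from the other 2.

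Loss of C3aR was not followed by a call in any member. C3aRKO against WT gave 0 of 35 members, where 0.00806% of 12407 genes (1 gene, C3ar1) were called by limma, and 2 members had an unadjusted p under 0.05. These were Psma2 at -0.56 ± 0.23 and Psmb1 at -0.43 ± 0.17, and edgeR and DESeq2 also called 0 members. Psmb1 was at 60.7 to 66.4 in WT and 32.5 to 53.3 in C3aRKO, and its value without the 4 libraries was -0.32 ± 0.10 with 1 C3aRKO library (adjusted p = 0.238). Psmb7 had the highest value, 0.44 ± 0.31, and Psma8 the lowest, -0.80 ± 0.66. APP-KI;C3aRKO against APP-KI likewise gave 0 of 35 members, with 0.00806% of genes called, and no member at an unadjusted p under 0.05. Psmb6 was at -0.02, with an interval from -0.36 to 0.32, and Psmb1 at 0.06, with an interval from -0.27 to 0.39. Psmd10 (0.51 ± 0.42) and Psmb5 (-0.50 ± 0.43) were the extremes. The difference between these knockout effects was called in 0% of genes, with 0 members at an unadjusted p under 0.05 and 0 called by edgeR or DESeq2, and was 0.49 ± 0.23 for Psmb1 (adjusted p = 0.998 by limma). Its extremes were Psma8 (1.01 ± 0.90) and Psmd14 (-0.49 ± 0.42), both of which changed sign without the 4 libraries (-0.44 and 0.14).

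C3aR+ libraries were compared with those sorted without the reporter, where the sort and the library series cannot be told apart. In WT mice 0% of 12589 genes were called by limma, and edgeR and DESeq2 called 0 members. The members ran from Psmb2 (-0.70 ± 0.50) to Psma4 (0.29 ± 0.19), with a median of -0.10, and Psmb1 alone was at an unadjusted p under 0.05 (-0.32 ± 0.13, adjusted p = 0.996). In APP-KI mice 0% were called as well, with 0 members called by edgeR or DESeq2 and 0 at an unadjusted p under 0.05, and members from Psma5 (-0.35 ± 0.32) to Psmb2 (0.91 ± 0.50). The APP-KI effect in C3aR+ microglia differed from that in all sorted microglia in 0% of genes by limma and by edgeR, and DESeq2 called 87 genes higher, 33 lower and no member. Psmb1 (0.55 ± 0.19, adjusted p = 0.394) and Psmb2 (1.61 ± 0.71, adjusted p = 0.413) were among 3 members at an unadjusted p under 0.05, and Psmd14 was lowest at -0.42. The larger Psmb1 value in C3aR+ microglia is thus not shown to differ from that in all microglia.

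The inducible counterparts were set beside the catalytic subunits. Psmb8 replaces Psmb5, Psmb9 replaces Psmb6 and Psmb10 replaces Psmb7. Per kb of exon, Psmb8 exceeded Psmb5 in all 20 libraries, with a log2 ratio of 2.48 ± 0.14 in WT and between 1.44 and 3.80 in all. Psmb9 was below Psmb6 in all 20, at -1.46 ± 0.15 in WT. Psmb10 and Psmb7 were nearer to each other, at 0.48 ± 0.14 in WT and from -1.73 to 0.83 over all libraries. In C3aR+ microglia, Psmb8 rose in APP-KI by 1.19 ± 0.19 (adjusted p = 0.0020 by limma) and Psmb10 fell by 0.67 (SE 0.21, adjusted p = 0.0425), whereas Psmb9 was at 0.58 ± 0.28 (adjusted p = 0.160). Psmb10 lost its call in 11 of 16 alternatives, edgeR, DESeq2 and median ratio scaling among them, and in 5 of the 6 that left out a library. The 3 genes had values of 0.34, 0.51 and -0.17 for Psmb8, Psmb9 and Psmb10 in APP-KI against WT without the reporter, and none was called. Without the 4 libraries Psmb8 was called there at 0.44 ± 0.11, and in APP-KI;C3aRKO against C3aRKO at 0.64 ± 0.14.

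**Figure D5:**
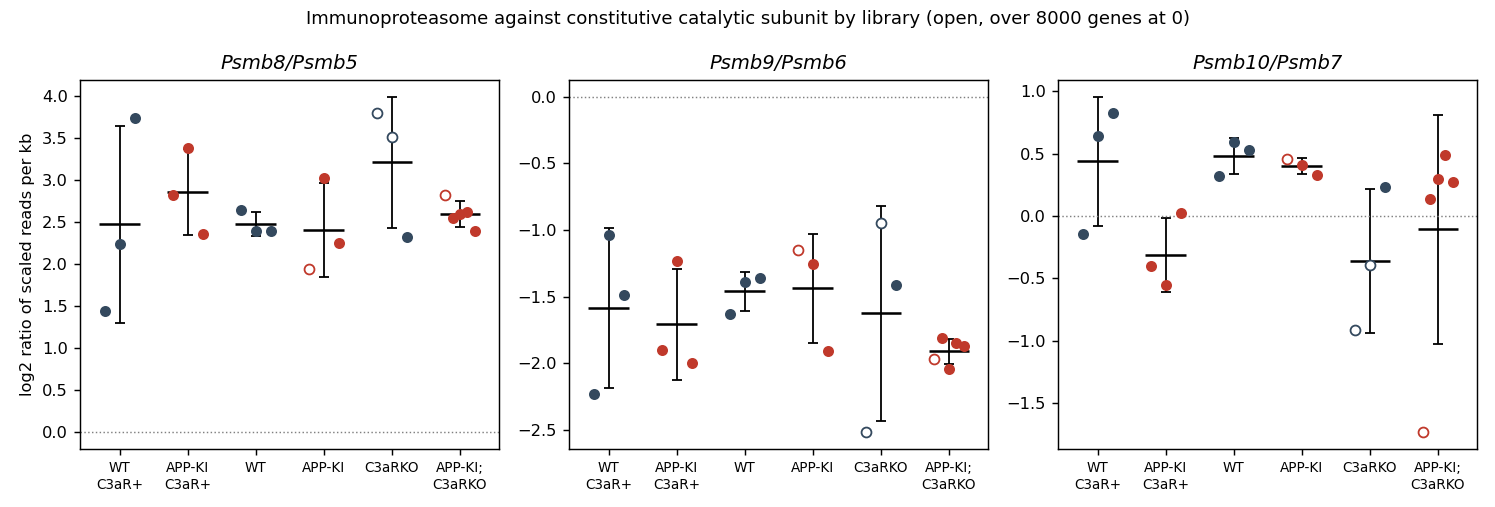
Log2 ratio of scaled reads per kb (vertical axis) of each immunoproteasome subunit to the constitutive subunit it replaces, in every library of the 6 conditions, with the mean and SD. The dotted line marks equal levels, and open points are the 4 libraries with over 8000 genes at 0. All Psmb8 to Psmb5 ratios are above it and all Psmb9 to Psmb6 ratios below it.

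Other genes of the pathway were counted from lists of 42 genes tested, the 3 above included. Among the C3aR+ libraries, 7 of them rose with APP-KI and 2 fell, where 13% of all genes were called higher and 9.71% lower. Nfe2l1 rose by 0.77 ± 0.12 and its activating protease Ddi2 by 0.36 ± 0.11, while Akirin2, which carries the proteasome into the nucleus, fell by 0.62 (SE 0.12). Nfe2l1 had 94.2, 95.9 and 90.9 scaled reads in WT C3aR+ and 169, 140 and 175 in APP-KI C3aR+ libraries. Psme1, a subunit of an alternative cap, rose by 0.49 ± 0.12, the small lid subunit Sem1 by 0.54 ± 0.16 and the autophagy receptor Sqstm1 by 0.61 ± 0.11. Of 5 core assembly chaperones, 0 were called. Ddi2 and Sem1 lost their calls when any 1 WT C3aR+ library was left out, and Psme1 without APP-KI C3aR+ replicate 2 (adjusted p = 0.0604) or WT C3aR+ replicate 3 (adjusted p = 0.0720).

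Among all sorted microglia, 1 of the 42 genes passed the test, again Akirin2 (-1.05 ± 0.26, adjusted p = 0.0320), whose call was lost when any 1 WT library was left out (adjusted p from 0.0526 to 0.313). Nfe2l1 was at -0.22 ± 0.25, with a value of 0.05 without the 4 libraries. Without them 8 genes were higher and 3 lower, against 13.2% and 14.7% of all genes. Among the higher ones were the cap subunits Psme1 (0.39 ± 0.07) and Psme2 (0.34 ± 0.10) and the core assembly chaperones Pomp (0.29 ± 0.08) and Psmg4 (0.54 ± 0.15). In APP-KI;C3aRKO against C3aRKO 0 of the 42 were called, and without the 4 libraries 10 were higher and 2 lower, against 13.2% and 18.2% of all genes, with Psme1 at 0.75 ± 0.09, Pomp at 0.59 ± 0.09 and Nfe2l1 at 0.33 ± 0.08.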

How the data were processed

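Microglial RNA was prepared with the Takara SMARTer Total RNA Pico v3 kit. The authors aligned reads to mm10 with TopHat2, and the submitters' processing notes also name cutadapt, featureCounts and DESeq2. How reads shared by copies, overlapping genes or strands were counted is not given in the sources used here. Of the 36 genes, 8 overlap another coding gene in GENCODE M21 (Psmb7 with Nek6, for example), and 4 annotated pseudogenes of Psmb5, Psmb6 and Psmb7 have no value of their own.

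The deposited values are a signal, named FPKM by the authors: reads of a gene relative to the upper quartile of its library, not divided by length. Whole reads were recovered for 100% of values (within 0.01 reads). The design had assumed FPKM, and its tests were kept. Values were multiplied by a constant, 35.2, which brings them near to CPM, so that 1 read was worth 0.0132 to 0.0786. A gene entered a fit if its mean there reached 1. Tests used log2(scaled + 1), the scale of all fold changes, which understates those of low genes, with limma 3.58.1 (R 4.3.3, mean-variance trend, Benjamini-Hochberg adjustment over all genes tested, 2-sided). The C3aR+ libraries were fitted alone, the 14 others together with the library series (the first digits of the library number) as a term, and 12 WT and APP-KI libraries without that term for the sort. Alternatives used edgeR 4.0.16 and DESeq2 1.42.0 on recovered reads, other filters, pseudocounts and scalings, and fewer libraries. The fits were tested on simulated data. Figures and tables were made with Python 3.11.15.

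Members and lists were chosen with earlier results of these data known. Named were Psmb5, Psmb6 and Psmb7, the members called, the extremes of each comparison, members under the filter, and of the pathway lists up to 3 called genes a list with Nfe2l1 and the immunoproteasome subunits, and 1 called pathway gene is not reported here. Psma2, Psmb2, Psmb4 and the extra genes named without the 4 libraries were added after their values were seen. Labels do not tie libraries to mice, so p-values measure the spread between libraries, which may be technical. No replicates were identical (25 pairs, chi-square per degree of freedom 21.6 to 967).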

Additional observations from a re-analysis of the deposited data

Results flagged for a closer look

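Among the 36 genes in the 5 APP-KI;C3aRKO libraries, the only condition to which Dixon's test was applied, since groups of 3 were not tested, 7 values lay far from the rest (a gap over 0.71 of the range, which chance gives for about 1 in 20 groups). Of these, 6 were in replicate 1, which has over 8000 genes at 0. It was high for Psma4 (80.7 scaled reads, next 49.5) and Psma8 (17.2, next 4.13). It was low for Psma5 (3.78, next 9.51), Psmd3 (34.95, next 75.7), Psmd6 (23.2, next 51.5) and Psmd13 (20.7, next 38.9). The other was Psmb11 in replicate 2, at 0.0704 (5 reads), with the others at 0.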

How the results depend on the processing

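Of the alternatives that did not leave out a single library, 250 gave a count or median of members like the reported one and 25 did not. In APP-KI C3aR+ against WT C3aR+ (3 members called, median -0.02), DESeq2 and median ratio scaling called 5, the fit without a mean-variance trend 1 and an adjusted p under 0.0005 called 0. Of all 12312 genes, DESeq2 called 2225 higher and 950 lower, median ratio scaling 1846 and 605, and the fit without the trend 1307 and 858. The member median was 0.13 with DESeq2, 0.11 with edgeR and 0.12 with median ratio scaling. Leaving out 1 library called 1 to 2 members, with medians from -0.024 to 0.021. In APP-KI against WT (0 called), library weights called 4 and the libraries with at most 8000 genes at 0 called 6. Of all genes, the weights called 1653 higher and 1969 lower of 12407, and the other fit 1661 and 1849 of 12563. Series 26 alone, with 1 APP-KI library, also changed the count, and each leave-one-out fit called 0. In APP-KI;C3aRKO against C3aRKO (2 called), series 24 alone, the 2 groups alone, the replicate block and an adjusted p under 0.0005 called 0. Series 26 alone, and leaving out the libraries over 8000 genes at 0 with or without APP-KI replicate 5, called 8. Leaving out 1 library called 2 to 4. In APP-KI;C3aRKO against APP-KI, the replicate block, on 2 pairs, called 1 (Psmb2), with a median of 0.34 against 0.10. Of 12663 genes it called 298 higher and 149 lower. In WT C3aR+ against WT, library weights called 1 (Psmb1), when 146 of 12589 genes were called higher and 351 lower. The member median of -0.10 was -0.14 with edgeR and -0.036 with a series term. In C3aRKO against WT the median of -0.09 was -0.22 in series 24. For the difference of knockout effects the medians ran from 0.044 to 0.30 when 1 library was left out. For the difference of APP-KI effects the median of 0.19 was 0.30 with median ratio scaling and 0.027 without both kinds of library (leave-one-out 0.11 to 0.27). Signs turned as follows. Without the 4 libraries, without APP-KI replicate 5 as well, and in series 26, Psma8 turned to -0.15, -0.18 and -0.12 in APP-KI;C3aRKO against C3aRKO, to 0.29, 0.32 and 0.41 in C3aRKO against WT, and to -0.44, -0.61 and -0.64 (-0.12 with weights) for the difference of knockout effects. Psmd14 turned to 0.14, 0.19 and 0.19 (0.054 with weights) in that difference. Psmb7 turned to 0.12, 0.11 and 0.16 in APP-KI;C3aRKO against C3aRKO, and to 0.062, 0.16 and 0.23 (0.14 with weights) in APP-KI against WT, where Nfe2l1 turned to 0.051, 0.10 and 0.11 (0.057 with weights). Psmb10 turned to 0.23, 0.23 and 0.27 (0.28 with weights) in APP-KI;C3aRKO against C3aRKO and to 0.013 in series 26 in APP-KI against WT. Psmb2 turned there to 0.051 without the 4 libraries and 0.00038 in series 26, Psmb5 in APP-KI;C3aRKO against APP-KI to 0.015 without the 4 libraries and 0.54 with the replicate block, and Psmb8 in APP-KI;C3aRKO against C3aRKO to -0.30 in series 24 and -0.0089 with the block. Leaving out 1 library gave -0.096 to 0.27 for Psmb7 in C3aR+ microglia. In APP-KI against WT it gave -0.40 to 0.075 for Nfe2l1, -0.42 to 0.19 for Psmb10, -0.96 to 0.088 for Psmb2 and -0.61 to 0.051 for Psmb7, and in APP-KI;C3aRKO against C3aRKO -0.46 to 0.26 for Psmb10 and -0.0057 to 0.73 for Psmb8. The cause was not tested. The labels do not say what libraries with the same replicate number share. Deviations of such libraries correlated at -0.01 to 0.04 in C3aR+ and 0.09 to 0.25 in WT and APP-KI. They correlated at 0.00 to 0.22 in C3aRKO and APP-KI;C3aRKO and -0.29 to 0.01 in APP-KI and APP-KI;C3aRKO. Libraries with different numbers were not compared, so these values cannot show whether such libraries had a common origin. With the block 2 members were called in C3aR+ and 0 in APP-KI against WT. Not run were the block where groups share fewer than 2 numbers, single-series fits of the C3aR+ libraries and of the 12 libraries, and the 2 groups alone for C3aR+, which is the reported fit. Depth limits Psmb11.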
